A study of Glycine max with 4 samples.

Results

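A stretch of soybean chromosome 6, from 11.7 to 13.3 Mb of the Glyma.Wm82.a2.v1 genome sequence, was examined by array comparative genomic hybridization (aCGH). The stretch was selected on measured values, because aCGH probes within it gave shifted ratios on all 4 arrays of the study. It held 2713 of the 951615 probes of the array, and all 2713 had a value on every array. These probes made up 5.12% of the 52976 probes of chromosome 6. They were 45 to 60 bp long, none overlapped the next, and their starts lay a median of 447 bp apart, with 7667 bp as the widest spacing.

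Leaf genomic DNA came from 4 soybean (Glycine max) plants of 2 fast neutron lines, which the labels name CM7F040P05 (plants 15 and 39, herein P05) and CM7F040P06 (plants 35 and 45, herein P06). Both names share the prefix CM7F040, and the mutant that the study describes was chosen for high sucrose and low oil in the seed. The study's paper lists a name that contains CM7F040P06 for that mutant and does not mention P05. According to its methods, the mutant's plants on the arrays descended from mutants that had been used in crosses. The descent of the P05 plants was not stated there. Each plant was hybridized on an array of its own against wild type M92-220-Long (herein “M92-220”). The paper's main text names M92-220 both as the irradiated line and as the array reference. Only a supplementary caption adds Long to the name, and the suffix is not explained. Mutant DNA carried Cy3 and “M92-220” DNA carried Cy5 on all 4 arrays. Because the dyes were never swapped, a dye bias of a probe and copy number differences between the lines and “M92-220” cannot be told apart in the ratios. All 4 ratios of a probe also share “M92-220” as the reference and are therefore not independent of it. The question here was which probes of the stretch gave unequal signal in mutant and wild type, where along the chromosome they lay, and whether the lines differed.

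In aCGH, the DNA of a test plant and of a reference plant compete for short probes designed from a reference genome. Sequence that is missing from the test plant gives a low ratio, and additional copies give a high ratio. A base change or a small insertion or deletion under a probe also weakens hybridization of the plant that carries it, so a single shifted probe need not reflect a change in copy number. Fast neutron irradiation is used in crop plants because it induces deletions, duplications and rearrangements. Apart from induced changes, plants of one soybean line can carry different haplotypes where the line was still segregating when it was founded. Gene content under the probes was not analyzed here.

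Each value below is the log2 ratio of mutant over “M92-220” processed signal, centered on the median of the array. Over the whole stretch the ratios lay near 0, with medians of -0.025 in plants 15 and 35 and -0.032 in plants 39 and 45. The robust SD (scaled median absolute deviation) of the probes in the stretch was 0.190 to 0.223, and over all probes of the same arrays it was 0.184 to 0.224. Between 94.5% and 96.9% of the probes in the stretch lay within 0.5 of 0 in each plant. The median of the probes in 100-kb bins ran from -0.11 to 0.043. The stretch as a whole was thus not shifted in any plant, and its ratios of 1 or more in size on all arrays lay in single probes.

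A log2 ratio of 1 or above on all 4 arrays was found at 10 probes of the stretch (0.369%), against 193 probes (0.0203%) of the 951298 that had a value on every array. A ratio of -1 or below on all 4 arrays was found at 6 probes of the stretch (0.221%), against 237 probes (0.0249%) over all chromosomes. The stretch was selected on these ratios, so both counts are descriptions. With normexp background correction of the raw signals, in place of the processed signals, 5 of the 10 high and 3 of the 6 low probes stayed beyond the threshold. On limma's treat test of the mean of both lines against a log2 ratio of 1, 5 probes (0.184%) were higher, with 0.0116% called over all chromosomes, and 5 (0.184%) were lower, with 0.0765% called. With limma's eBayes test against 0 and a mean ratio beyond 1, 13 were higher (0.0785% over all chromosomes) and 9 lower (0.193%). These tests used the contrast that selected the stretch and are given without inference. They leave out the spread of “M92-220” itself, and with normexp treat called 3 higher and 3 lower.

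**Figure D1:**
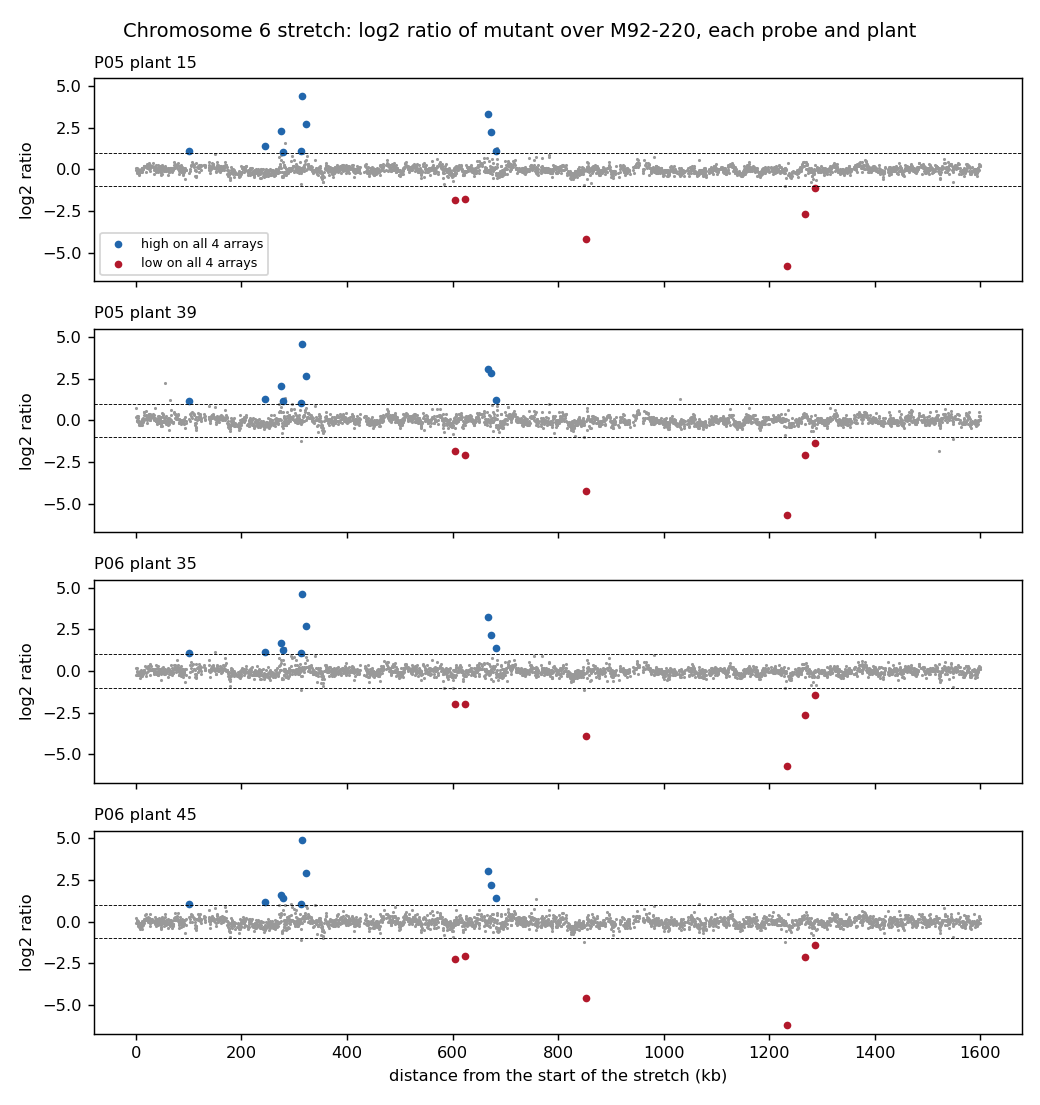
Log2 ratio of mutant over “M92-220” for each of the 2713 probes, plotted by distance in kb from the start of the stretch, with 1 panel per plant. Blue points are the 10 probes at 1 or above and red points the 6 probes at -1 or below on all 4 arrays, gray points are the other probes, and dashed lines mark 1 and -1. By this definition the blue and red points are the same probes in each panel. They are isolated and lie on either side of a band of gray points near 0.

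High ratios were found near 12.01 to 12.02 Mb and near 12.37 Mb. Probe Gm_CUST_P10894935 (chr6:12014431-12014490) gave 4.38 in plant 15, 4.57 in plant 39, 4.59 in plant 35 and 4.91 in plant 45, with a mean of 4.61 ± 0.22 (SD, n = 4). It was well above background in the mutants only: its Cy3 signal was 176 to 292, while the Cy5 signal of “M92-220” was 7.30 to 14.1 and was not well above background on any array. The ratio therefore has only a lower bound. On the processed signals, the mutants were at least 8.86-fold higher than “M92-220” as a geometric mean of the 4 arrays. That bound sets “M92-220” at the lowest Cy5 signal among probes well above background on each array, which was 24.3 to 28.0. Single arrays had bounds above and below this mean. With normexp the mean ratio of the probe was 0.26.

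Probe Gm_CUST_P10896887 (chr6:12367810-12367854) gave 3.35, 3.06, 3.23 and 3.02 in plants 15, 39, 35 and 45, a mean of 3.17 ± 0.15 (SD, n = 4), and 3.56 with normexp. The bound at Gm_CUST_P10894935 leaves the order of these probes undetermined. It differed from the other high probes in its signal. Its Cy3 signal of 9836 (geometric mean of 4 arrays, range 9294 to 10702) stood at percentile 99.9 of the stretch, whereas its Cy5 signal of 1099 stood at percentile 50.1. “M92-220” thus had a middling signal at this 45-bp probe and all 4 mutants an exceptionally bright one. No array was saturated there in either dye.

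Probe Gm_CUST_P10894979 (chr6:12021457-12021515) followed with 2.75, 2.64, 2.70 and 2.95, and a mean of 2.76 ± 0.13 (SD, n = 4). Its Cy3 signal was 887 and its Cy5 signal 131, well above background on all arrays. Probe Gm_CUST_P10896926 (chr6:12372560-12372619) gave 2.24, 2.84, 2.18 and 2.23 in plants 15, 39, 35 and 45, a mean of 2.37 ± 0.32 that was 0.55 with normexp. Plant 39 was higher at this probe than the other plants, which lay close together. Probe Gm_CUST_P10894685 (chr6:11974137-11974196) gave 2.30 and 2.08 in the P05 plants and 1.69 and 1.63 in the P06 plants, a mean of 1.92 ± 0.32. Both P05 plants were above both P06 plants, the widest separation of lines among the shifted probes.

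The remaining high probes were closer to the threshold. Probe Gm_CUST_P10896988 (chr6:12383089-12383148), the last high probe of the stretch, gave 1.09, 1.21, 1.37 and 1.40, a mean of 1.27 ± 0.15. Gm_CUST_P10893684 (chr6:11800648-11800698), the first high probe and the first shifted probe of either direction, gave 1.12, 1.18, 1.06 and 1.04. Between them, Gm_CUST_P10894476 (chr6:11945425-11945484), Gm_CUST_P10894712 (chr6:11977923-11977982) and Gm_CUST_P10894933 (chr6:12013553-12013612) had means of 1.24, 1.22 and 1.07. Their plants spanned 1.03 to 1.41, so these ratios lay just above the threshold in every plant. Averaged over the 10 high probes, plants 15, 39, 35 and 45 had ratios of 2.08, 2.10, 2.03 and 2.08.

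The low probes included 2 at which only “M92-220” was well above background. Probe Gm_CUST_P10900151 (chr6:12933055-12933114) gave -5.79, -5.66, -5.73 and -6.17 in plants 15, 39, 35 and 45, a mean of -5.84 ± 0.23 (SD, n = 4). It mirrored Gm_CUST_P10894935, with a Cy5 signal of 521 in “M92-220” and a Cy3 signal of 8.0 to 9.91 that was not well above background in any mutant. On the processed signals, the mutants were at least 13.5-fold lower than “M92-220” as a geometric mean of the 4 arrays. Each mutant was set there at the lowest Cy3 signal well above background on its array (34.4 to 42.7). With normexp the mean ratio of the probe was -1.48.

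Probe Gm_CUST_P10898081 (chr6:12553218-12553277) gave -4.19, -4.26, -3.92 and -4.59, a mean of -4.24 ± 0.28. Its Cy3 signal of 7.25 to 11.1 was likewise not well above background on any array, against a Cy5 signal of 166 to 176. On the processed signals, the mutants were thus at least 4.37-fold lower as a geometric mean over the arrays. With normexp its mean ratio was -0.49. No mutant was thus well above background at this probe or at Gm_CUST_P10900151, although “M92-220” was well above background at both on every array.

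At the other 4 low probes the mutants kept a signal that was well above background on all arrays. Probe Gm_CUST_P10900340 (chr6:12968019-12968078) gave -2.67, -2.08, -2.63 and -2.14, with Cy3 at 71.7 and Cy5 at 375. Plants 15 and 35 were lower there than plants 39 and 45, so the plants did not divide by line. Probe Gm_CUST_P10896575 (chr6:12304817-12304876), the first low probe, gave -1.81, -1.83, -1.96 and -2.25. Probe Gm_CUST_P10896671 (chr6:12323434-12323493) gave -1.75, -2.06, -1.99 and -2.03. Both had a mean of -1.96, but “M92-220” was at 1308 at the former and at 229 at the latter, and with normexp their means were -2.30 and -0.49. With normexp the mean of Gm_CUST_P10900340 was -0.92, so it and Gm_CUST_P10896671 no longer passed the threshold. Probe Gm_CUST_P10900455 (chr6:12986487-12986546), the last shifted probe of the stretch, gave -1.14, -1.36, -1.42 and -1.40. Averaged over the 6 low probes, the same plants had ratios of -2.89, -2.87, -2.94 and -3.10. These averages take probes with only a bound at their measured values, and with normexp the average over plants went from 2.07 to 1.23 at the high probes and from -2.95 to -1.20 at the low probes.

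**Figure D2:**
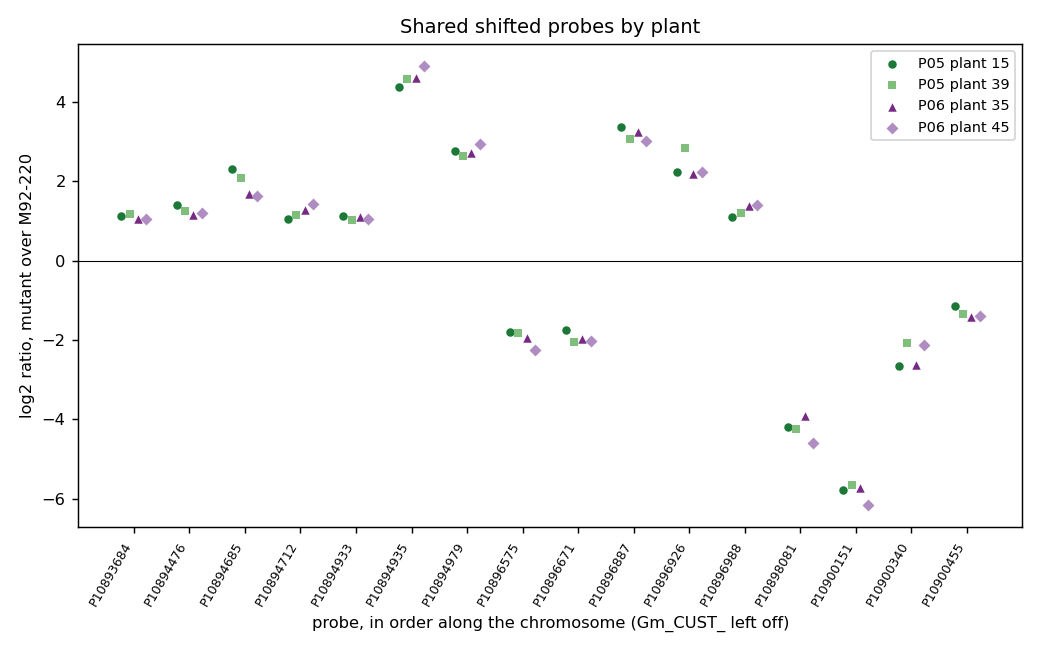
Log2 ratios (mutant over “M92-220”) at the 16 shifted probes in order along the chromosome, with 1 symbol per plant (green, P05 plants 15 and 39; purple, P06 plants 35 and 45). By the selection, all 4 plants lie on the same side of 0 at each probe. The P05 and P06 symbols are furthest apart by line at P10894685, where P05 is higher.

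The spread between plants was small beside the ratios themselves. Because every plant had to pass the threshold for a probe to be included, this is a description. The SD over the 4 plants had a median of 0.151 at the high probes and 0.218 at the low probes, against 0.0786 over the whole stretch. Repeated spots gave the error within an array. Probes Gm_CUST_P10898687 (chr6:12685373-12685432) and Gm_CUST_P10898968 (chr6:12732443-12732501) of the stretch were printed 11 times each, and their usable spots had an SD of 0.043 to 0.064 within an array. No shifted probe was printed more than once.

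High and low probes differed in which dye was dimmer. At 7 of the 10 high probes the Cy5 signal of “M92-220” was below percentile 10 of the stretch, and 1 had a Cy3 signal above percentile 90. The median signal of the high probes was 601 in Cy3 and 237 in Cy5. At 5 of the 6 low probes the Cy3 signal of the mutants was below percentile 10, and none had a Cy5 signal above percentile 90. The median signal of the low probes was 65.2 in Cy3 and 448 in Cy5. Across the 2713 probes the medians were 1053 in Cy3 and 1087 in Cy5. The brighter dye was also low, at a median percentile of 23.1 in Cy3 for the high probes and 15.3 in Cy5 for the low probes. In that dye, 2 high and 2 low probes were below percentile 10. Most of the shifted probes were thus below the median of the stretch in both dyes, and dimmer in 1 of them. These signals make up the ratios on which the stretch was selected and are therefore descriptions.

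**Figure D3:**
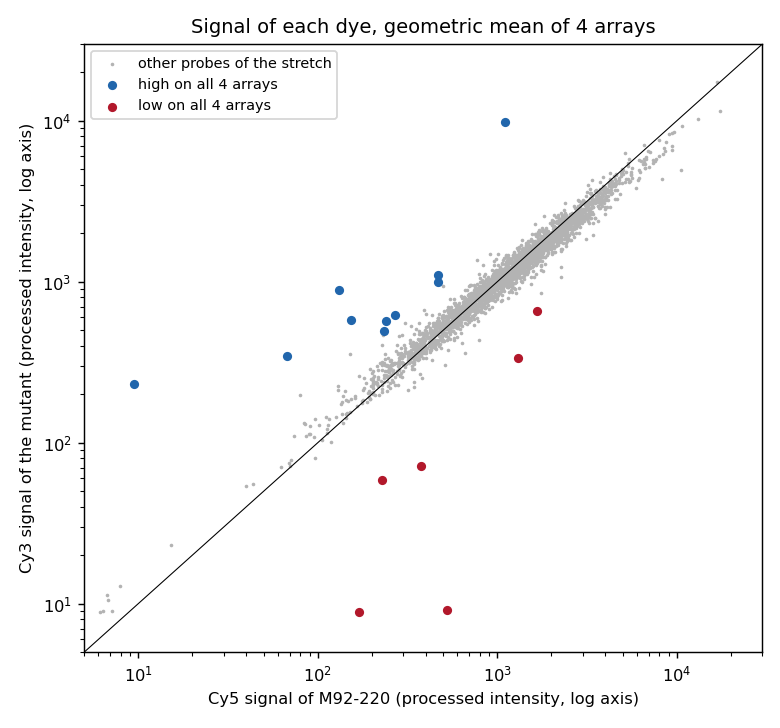
Processed Cy3 signal of the mutants against processed Cy5 signal of “M92-220” for each probe of the stretch, both as the geometric mean of 4 arrays on log axes, with the line of equal signal. Blue points are the 10 high probes and red points the 6 low probes. One blue point, Gm_CUST_P10896887 at 9836 in Cy3, lies among the brightest probes, 1 blue point lies at a Cy5 signal of 9.47, and 2 red points lie at Cy3 signals near 9.

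No shifted probe had a neighbor shifted by 1 or more, and most neighbors were within 0.5 of 0. The nearest probes on both sides were 31 distinct neighbors, since Gm_CUST_P10894934 adjoined 2 shifted probes, and lay 214 to 5229 bp away. Of these, 29 had a mean ratio within 0.5 of 0. The neighbor means ran from -0.60 to 0.49. The neighbor beyond 0.5 in the same direction was Gm_CUST_P10900149, with a mean of -0.52 beside Gm_CUST_P10900151. The neighbor beyond 0.5 in the opposite direction was Gm_CUST_P10894709, with a mean of -0.60 beside the high probe Gm_CUST_P10894712. At 14 of the 16 shifted probes, both neighbors were within 0.5 of 0. Smaller ratios of 1 sign on all arrays did occur around them. Gm_CUST_P10900341, beside the low probe Gm_CUST_P10900340, gave 0.40 to 0.60 over the plants. The 10 probes to the left of Gm_CUST_P10894476 had means of -0.50 to -0.17 and were below 0 on all arrays.

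No pair of consecutive probes was shifted by 1 or more on all arrays. Gm_CUST_P10894933 and Gm_CUST_P10894935 came closest, with 0.818 kb between them, and the probe that separated them (Gm_CUST_P10894934) had a mean of 0.091. On either side of Gm_CUST_P10900151 the means were -0.52 at 677 bp and 0.41 at 1543 bp. On either side of Gm_CUST_P10894935 they were 0.091 at 474 bp and -0.11 at 1031 bp. Both ratios had thus returned to within about 0.5 of 0 at the adjacent probes.

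**Figure D4:**
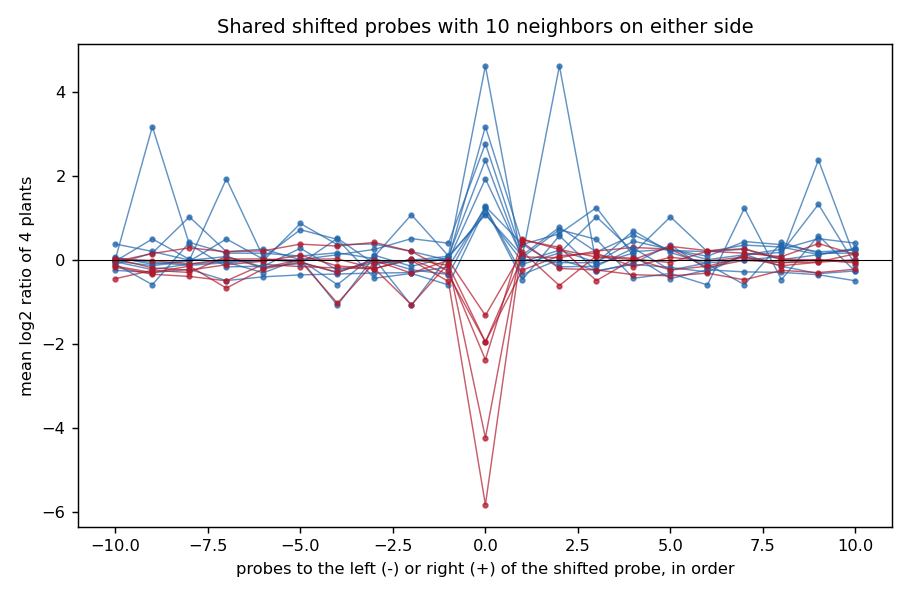
Mean log2 ratio over 4 plants of each shifted probe (position 0) and of the 10 probes to either side, in order along the chromosome (blue, centered on a high probe; red, centered on a low probe). The lines return to within about 0.6 of 0 at the adjacent probes, and the peaks away from position 0 are nearby probes, some of them shifted by 1 or more on all arrays and some just outside that threshold.

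High and low probes occupied different but overlapping sections. The 10 high probes ran from 11800648 to 12383148 over 583 kb, and the 6 low probes from 12304817 to 12986546 over 682 kb. Together they spanned 1186 kb. Both low probes near 12.30 and 12.32 Mb preceded the 3 high probes at 12.37 to 12.38 Mb, so the directions were interleaved rather than divided at 1 point. The longest section with no shifted probe lay between 12553277 and 12933055, where 620 probes over 380 kb separated Gm_CUST_P10898081 from Gm_CUST_P10900151.

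Between the outermost shifted probes and the limits of the stretch, the medians lay near 0. The 178 probes before 11800648, over 95.0 kb, had a median of 0.0013 and a robust SD of 0.173, and none was beyond 0.5 on all arrays. The 527 probes after 12986546, over 313 kb, had a median of -0.010 and a robust SD of 0.183. One of them was beyond 0.5 on all arrays, Gm_CUST_P10901858 (chr6:13247453-13247512), with ratios of -0.74, -1.10, -0.97 and -0.92. The robust SD of the 100-kb bins ran from 0.148 to 0.258, so some inner bins spread less than these outer probes. The edges hold only within the chosen limits of the stretch. Outside it, the nearest probes beyond 0.5 on all arrays lay at 11183467 (mean -0.61) and 13386976 (mean -0.65). Low probes followed at 13671522 (mean -0.55), 13680056 (mean -0.83) and 13701478 (mean -0.68). Others lay from 14010536 to 14306964, in both directions.

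With a threshold of 0.5 on every array, 26 probes of the stretch were high (0.958%, against 0.177% over all chromosomes) and 22 were low (0.811%, against 0.294%). With a threshold of 2 there were 4 high probes (0.00484% over all chromosomes) and 3 low probes (0.00368%). At 0.5 the high probes ran from 11800648 to 12663042 and the low probes from 11877917 to 13247512, a span of 1447 kb in all. The shifted probes were unevenly placed: 9 high probes fell between 11.9 and 12 Mb, 6 high and 4 low between 12 and 12.1 Mb, and 5 high and 3 low between 12.3 and 12.4 Mb. From 12.5 to 12.6 Mb there were 5, and from 12.9 to 13 Mb 6, all of them low. None lay between 12.1 and 12.2 Mb or between 12.7 and 12.9 Mb.

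At this lower threshold there were 3 pairs of consecutive shifted probes. The pair Gm_CUST_P10894814 and Gm_CUST_P10894818 covered chr6:11994306-11995565 (1260 bp) with a mean of 0.82. The pair Gm_CUST_P10896992 and Gm_CUST_P10896994 covered chr6:12383803-12384181 (379 bp) with a mean of 0.93, and Gm_CUST_P10897896 and Gm_CUST_P10897899 covered chr6:12528748-12529059 (312 bp) with a mean of -0.62. No run was longer than 2 probes. Opposite directions also lay close together, since the low probe Gm_CUST_P10894926 (chr6:12012731-12012789), with a mean of -1.09, came just before the high probe at 12013553.

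The 22 low probes at 0.5 include the 6 at 1, and as a set they were brighter than those 6 alone. They had a median Cy5 signal of 1705, against 448 for the 6. Of the 22, 7 were above percentile 90 in Cy5 and 8 were below percentile 10 in Cy3, 5 of these among the 6. The 26 high probes remained dim in “M92-220”, with a median Cy5 signal of 237 and 17 probes below percentile 10. In Cy3, 3 of the 22 low probes were above percentile 90, among them Gm_CUST_P10894926 with 4976 in Cy3 and 10619 in Cy5. No high probe was above percentile 90 in Cy5.

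The threshold divided probes with nearly equal values. Just inside it, Gm_CUST_P10894933 and Gm_CUST_P10893684 had lowest ratios of 1.03 and 1.04 among the plants. Just outside, Gm_CUST_P10894745 (chr6:11981600-11981659) gave 1.60, 1.31, 1.36 and 0.99, and Gm_CUST_P10894950 (chr6:12016501-12016560) gave 0.98, 1.08, 0.97 and 1.04. Among low probes, Gm_CUST_P10900455 and Gm_CUST_P10896671 were just inside, with -1.14 and -1.75 as the ratio nearest 0. Gm_CUST_P10898077 (chr6:12549707-12549766), with -0.92, -1.02, -1.12 and -1.24, and Gm_CUST_P10900139 (chr6:12930481-12930533), with -1.01, -0.92, -1.01 and -1.20, were just outside. Both of these lay within 4 kb of the probes at which no mutant was well above background, at 12553218 and 12933055.

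The difference between the lines was tested across all probes. A state of the reference common to all arrays and a constant dye bias of a probe cancel in it. The error of the reference signal on a single array does not cancel. No probe of the stretch differed by limma's treat test against a log2 difference of 1 (0 of 2713, with 0.0772% called over all chromosomes) or by limma's eBayes test against 0 (0 of 2713, with 0.101% called). The smallest adjusted p in the stretch was 1 by treat and 0.0787 by eBayes. At an unadjusted p under 0.05, treat gave 0 probes and eBayes 196 (7.22%, against 8.14% of all probes). The P06 minus P05 differences of the stretch had a median of -0.011 and a robust SD of 0.102, against 0.103 over all probes. With 2 plants per line, a failure to pass the test does not show that the lines are alike.

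Among the 16 shifted probes, the size of the P06 minus P05 difference had a median of 0.15. The largest was -0.53 (SE 0.091) at Gm_CUST_P10894685, with an eBayes adjusted p of 0.39, the smallest of the 16. The plants of P05 and P06 did not overlap at 9 of the 16 probes, with P05 further from 0 at 4 of them, whereas 40.6% of all probes had lines that did not overlap. At each of the 16 the difference was smaller than the ratio itself. Probes had to pass the threshold in the same direction on all arrays, so this comparison is a description and not evidence that the lines are alike.

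**Figure D5:**
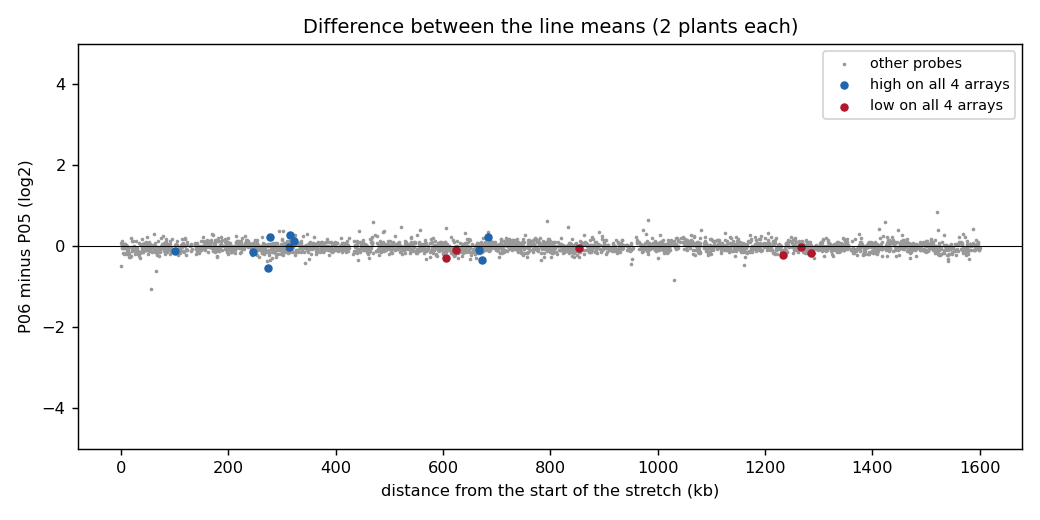
P06 minus P05 difference of the line means (log2, 2 plants each) for each probe by distance in kb from the start of the stretch. The shifted probes (blue, high; red, low) lie between -0.53 and 0.53, and the gray points furthest from 0 are probes at which plant 39 stood apart.

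The widest differences between lines in the stretch came from plant 39. Probe Gm_CUST_P10893448 (chr6:11755391-11755450) gave 0.20, 2.21, -0.20 and 0.48 in plants 15, 39, 35 and 45, a P06 minus P05 difference of -1.06 (SE 0.59). Probe Gm_CUST_P10901743 (chr6:13221130-13221189) gave -0.18, -1.83, -0.26 and -0.060, a difference of 0.84 (SE 0.46). Plant 39 was alone in both cases, and plant 15 of the same line lay with the P06 plants. Without plant 15, P05 rested on plant 39 alone, and treat called 2 probes of the stretch, Gm_CUST_P10901743 (1.67, adjusted p = 0.029) and Gm_CUST_P10898959 (-1.59, adjusted p = 0.046). The lone plant was assumed there to vary like the P06 plants.

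Plant 39 lay 1 or more from all other plants at 4 probes of the stretch, and no other plant did so at any. At Gm_CUST_P10898959 (chr6:12730086-12730133) it gave 1.30 against -0.36 to -0.22, and both dyes were dim on its array, with 27.0 in Cy3 and 11.03 in Cy5 where the other arrays had 1357 to 1432 and 1603 to 1825. At Gm_CUST_P10901743 both dyes were dim again, with 8.97 and 32.0 where the others had 539 to 672 and 611 to 753. A loss of signal in both dyes, “M92-220” included, was thus seen on that array alone at these 2 probes. At Gm_CUST_P10893448 the Cy3 signal of plant 39 was 393 against 73.2 to 106, and at Gm_CUST_P10893514 (chr6:11765216-11765275) it was 491 against 174 to 191, while Cy5 was 74.5 to 92.5 and 175 to 209 over all arrays. The array of plant 39 also had the most spots marked by the scanner software, 861 against 210 to 244 on the others, and its part in these values was not tested.

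The stretch held 16 of the 26 probes of chromosome 6 that were shifted by 1 or more on all arrays, and 48 of the 219 at 0.5, on 5.12% of the chromosome's probes. No such probe preceded 11800648 on the chromosome at 1. At this threshold, the next after the stretch was at 14110161, 1124 kb beyond the last one within it.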

How the data were processed

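The authors deposited the Agilent Feature Extraction 12.0.0.7 output of each array, with spot intensity in both dyes that was background-subtracted, detrended and dye-normalized linearly within the array, per the file headers. They also deposited a table of log2 ratios of the same arrays. It differed from the log2 ratio of the processed signals by a constant per array, within 0.01 at 99.98% or more of the probes, in the direction of mutant over “M92-220”. Each array had 963719 spots, 960745 of them probe spots, with median processed signals of 1032 to 1053, and the number of arrays limits the precision. Per the deposited flags, the Cy3 signal was well above background at 98.7% to 99.2% of the spots.

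The 210 to 861 spots per array that carried a non-uniformity or population outlier flag were dropped, and repeated spots were averaged. The median over all probes of an array was subtracted from its log2 ratios, and neither loess nor quantile normalization was applied. The limma package (version 3.58.1, R 4.3.3) was used for the tests (1 mean per line, treat against a log2 value of 1, Benjamini-Hochberg adjustment over 951298 probes, called at an adjusted p under 0.05). The plants are separate plants of a line with 1 array each, so p-values measure the spread between plants and between arrays together. The code was tested on simulated data. Tables were made in Python 3.11.15 with numpy 2.4.6 and pandas 2.3.3. The files held median rather than mean raw signals, so the normexp alternative (offset 50) used the medians. Other alternatives varied the centering, marked spots, dim probes, thresholds, test and plants. The 8054 probes listed on Chr014 were taken as chromosome 14.

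Probes were named where they were the 6 highest or lowest, the first or last of a direction, nearest a threshold, the ends of the longest runs, the extremes of the line difference or apart in 1 plant. Others were named after their values were seen. The stretch and these rules were chosen with earlier results of these data known. Gene annotation of the genome build was not used here.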

Additional observations from a re-analysis of the deposited data

How the results depend on the processing

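The normexp alternative, which combined another background correction with an offset of 50 added to both dyes, moved most results. The parts of the correction and of the offset were not separated. With normexp, 5 high and 3 low probes were shifted on all arrays, all of them among the 10 and 6 reported, with mean ratios of 1.23 for the 10 and -1.20 for the 6, and treat called 3 higher and 3 lower. Gm_CUST_P10894935, at 4.61 with the processed signals, had 0.26 with normexp, and Gm_CUST_P10898081 went from -4.24 to -0.49. At both probes 1 dye was not well above background, which leaves only a bound, but Gm_CUST_P10896926 (2.37 to 0.55) and Gm_CUST_P10896671 (-1.96 to -0.49) moved as well with both dyes well above background on all arrays. A threshold of 0.5 gave 26 high and 22 low probes, and a threshold of 2 gave 4 and 3. The eBayes test with a mean beyond 1 gave 13 higher and 9 lower. Uncentered ratios, ratios centered by chromosome, the deposited ratios, the use of marked spots, a filter on dim probes and a variance trend moved no count by over 1.5 times. Leaving out 1 plant gave 10 to 11 high and 6 to 8 low probes, means of 2.06 to 2.09 and -2.98 to -2.90, 5 to 7 higher and 5 to 6 lower, and 0 to 2 probes called between the lines. The 2 calls came without plant 15. In all, 77 of 90 alternative values stayed close to the reported ones, 13 moved and 0 reversed. The causes were not tested. No paired analysis was possible because plants 15 and 39 of P05 share no number with plants 35 and 45 of P06.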

Other observations

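Outside the stretch, chromosome 6 had 10 probes shifted by 1 or more on all 4 arrays. The ratio means over the plants were 1.53 at chr6:14110161-14110220, 1.47 at chr6:14306905-14306964, 1.81 at chr6:17543197-17543256 and 1.65 at chr6:49487182-49487241 among the high probes. Single low probes had means of -1.06 at chr6:34838805-34838864 and -1.22 at chr6:46388901-46388959. The other 4 low probes were consecutive, unlike any probes of the stretch at this threshold, and covered chr6:30707115-30708048 with means of -1.25, -1.25, -1.49 and -1.18.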
